A study of Mus musculus with 2 samples.

Results

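The 44 genes described here act in mitosis, the division of the nucleus, and in the cytokinesis that follows it. They were chosen by name, with kinesins other than Cenpe left out. Each was represented by every probe set of the array whose annotation gives that gene alone. All 44 matched, through 103 of the 45101 probe sets, and stand among 18193 genes with such a probe set, of which 13252 were measured. The label of the set names checkpoint, kinetochore and condensin genes, and the set also holds cyclins, kinases of mitotic entry, spindle and cytokinesis genes, and the proliferation markers Mki67 and Top2a.

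RNA came from cells sorted from back skin hair follicles of CD-1 mouse pups at postnatal day 4. All pups carried K14-RFP, a red reporter under the promoter of keratin 14, which is active in basal keratinocytes, and Sox9-EGFP, which marks cells that express the stem cell factor Sox9 in green. Cells bright for both colours made up the early bulge sample, the bulge being the niche of the follicle's stem cells. Cells bright for red but negative for green made up the sample of non-bulge outer root sheath (ORS), the outermost epithelial layer of the follicle. A slow spin had been used to remove dermal cells from the follicles before they were digested. Dead cells, and large differentiated cells by their side scatter, had been gated out of both. Each population was measured on 1 array, and the labels do not say how many pups were pooled. The ratios therefore lack any replicate check, and p-values are not given. Both arrays had a 2% trimmed mean signal of 500.0, so they had been scaled to one target.

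Entry into mitosis is driven by cyclin-dependent kinase 1 with its A and B cyclins. Condensin compacts the chromosomes, kinetochores built on the centromeres attach them to spindle microtubules, and the spindle checkpoint holds back the anaphase-promoting complex until every chromosome is attached. Most of these genes are transcribed in a burst late in the cell cycle and are silent in resting cells, so their RNA is widely used as a sign of dividing cells. In the growing hair follicle the matrix at its base divides fast, and adult bulge stem cells divide rarely.

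The promoters of the set share short sequence motifs that the choice of genes did not use. The first is TTTGAA, the usual letters of the cell cycle genes homology region (CHR), which is bound by MuvB complexes that repress mitotic genes in resting cells and activate them before mitosis. The second is CCAAT, the box bound by the activator NF-Y. Promoter sequences of 300 bases, 250 before and 50 after the transcription start, came from RefSeq (GRCm38.p6) and were found for 36 of the 44 genes. Ccna2, Cdc25c, Foxm1, Tpx2, Spc24, Aurkb, Incenp and Smc4 were not matched. Both motifs were searched on both strands, and each was counted whether or not it overlapped the other. TTTGAA was found in 26 of the 36 genes (72.2%), against 20.2% of the 27025 genes of the promoter table and 14.4% of the 10641 measured genes in it. CCAAT was found in 27 (75.0%), against 41.1% and 42.5%. Both were found in 24 (66.7%), against 7.97% and 5.74%. A match describes these letters and is not evidence of binding.

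The stretches below are the 110 bases before the start of 8 genes from different stages of mitosis, chosen after their matches and ratios were seen to show the range of motif content. Each reads 5′ to 3′ in the direction of transcription. Capitals mark TTTGAA or CCAAT read on either strand (TTCAAA and ATTGG on the other one). Cdk1, Cdc20, Ube2c and Bub3 have TTTGAA within the stretch, Ccnb2, Cdca8 and Bub1 have only CCAAT there, and Nuf2 has neither.
Cdk1, chr10:69352913-69353022, minus strand: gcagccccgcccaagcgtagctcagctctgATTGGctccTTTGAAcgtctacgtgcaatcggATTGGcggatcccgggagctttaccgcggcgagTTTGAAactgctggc
Cdc20, chr4:118437344-118437453, minus strand: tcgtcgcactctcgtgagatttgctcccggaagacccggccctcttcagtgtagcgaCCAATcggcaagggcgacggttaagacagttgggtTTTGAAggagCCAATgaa
Ube2c, chr2:164769819-164769928, plus strand: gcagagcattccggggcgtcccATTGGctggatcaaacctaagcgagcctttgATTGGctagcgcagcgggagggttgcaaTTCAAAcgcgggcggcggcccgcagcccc
Bub3, chr7:131560260-131560369, plus strand: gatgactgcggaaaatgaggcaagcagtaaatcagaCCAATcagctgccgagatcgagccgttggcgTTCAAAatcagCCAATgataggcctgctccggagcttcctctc
Ccnb2, chr9:70421555-70421664, minus strand: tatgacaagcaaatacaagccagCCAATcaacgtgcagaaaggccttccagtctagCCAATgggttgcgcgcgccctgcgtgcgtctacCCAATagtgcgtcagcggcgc
Cdca8, chr4:124936918-124937027, minus strand: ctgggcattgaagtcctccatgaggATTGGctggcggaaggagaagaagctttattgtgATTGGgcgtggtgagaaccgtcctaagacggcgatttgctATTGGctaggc
Bub1, chr2:127831860-127831969, minus strand: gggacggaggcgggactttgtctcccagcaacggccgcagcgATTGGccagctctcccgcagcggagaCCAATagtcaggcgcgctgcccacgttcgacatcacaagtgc
Nuf2, chr1:169531465-169531574, minus strand: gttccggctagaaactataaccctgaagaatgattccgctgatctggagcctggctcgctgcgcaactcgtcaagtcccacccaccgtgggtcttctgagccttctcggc

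The place of the motifs was also alike. In 24 of the 36 genes TTTGAA lay between 50 bases before and 50 bases after the start, which held for 5.72% of all genes of the promoter table and 3.86% of the measured ones. In 16 genes a TTTGAA began after the start, as in Ccnb2 (position 5, the start being 1), Hmmr (9), Cdca8 (14) and Aurka (33). CCAAT occurred at least 2 times in the promoters of 19 of the 36 genes, and at least 2 times in 11.7% of all promoters. In Ccnb2 the 3 CCAAT boxes stood 33 bases apart at positions -87, -54 and -21. The letters of neither motif were found for Melk, Nusap1, Mad2l1, Pttg1, Nuf2, Birc5 and Ncaph. For Pttg1, Aurka, Cdca3, Ect2 and Ncapd2 the searched bases lay downstream of the annotated gene start and did not include it.

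**Figure D1:**
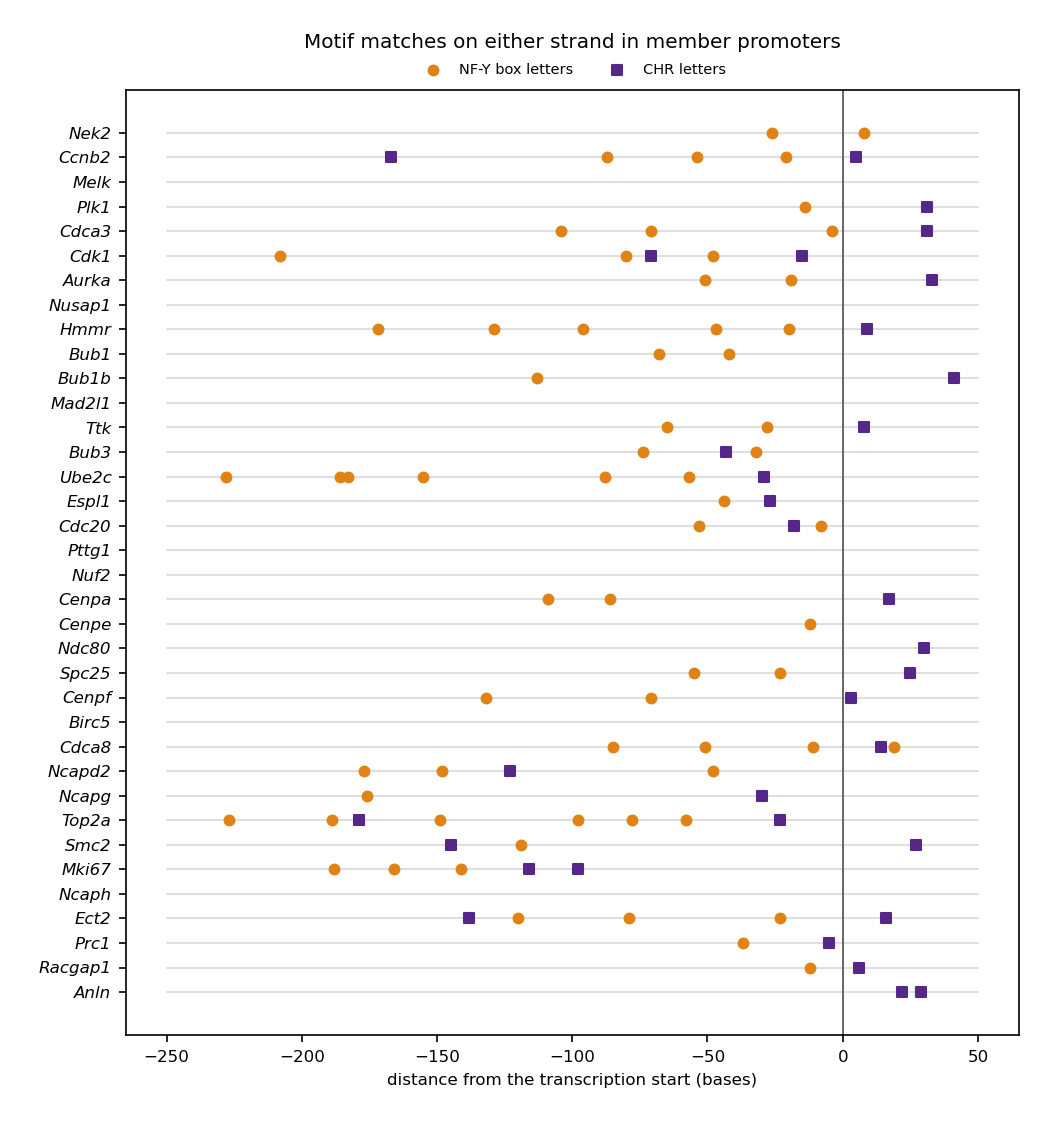
Positions of TTTGAA (CHR letters, squares) and CCAAT (NF-Y box letters, circles) on either strand in the promoters of 36 mitotic genes, against the distance in bases from the transcription start. For genes with more than 1 promoter the one with the lowest coordinate is drawn, and squares cluster within 50 bases of the start.

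All 44 mitotic genes had a lower signal in early bulge than in ORS cells, mostly by less than 2-fold. Ratios are given as log2 of early bulge over ORS signal, so that -1 is a signal 2-fold lower in early bulge. Their median log2 ratio was -0.68, a signal 1.60-fold higher on the ORS array, against a median of 0.04 for all 13252 measured genes. Of the 44, 29 (65.9%) were at least 1.5-fold lower in early bulge, as were 12.8% of all measured genes. At least 2-fold lower were 10 (22.7%), against 4.78% of all measured genes. That count was 19 with the arrays centred on their medians and 6 with ratios averaged over probe sets. With only probe sets that lack the suffixes _s, _x and _a it was 5. A lower signal of any size was found for 47.0% of all measured genes. None of the 44 was higher in early bulge on its brightest probe set, though Cdca3, Spc25 and Pttg1 were higher when only probe sets without a suffix were used, and 7.3% of all measured genes were at least 2-fold higher. All 44 lay on both arrays above a signal of 57.8, the floor under which signals were not ordered, so none of these ratios is a bound. In a sorted population, fewer dividing cells and less of each RNA per cell cannot be told apart.

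Markers of other cells also differed between the arrays, some of them by far larger ratios. Sox9, whose reporter set the green gate, had 4061 in early bulge and 676.1 in ORS, and Krt14, whose promoter drives the red reporter, had 14706 and 6609. For the counts below, 7.3% of all measured genes were at least 2-fold higher in early bulge and 4.78% at least 2-fold lower. Of 7 bulge stem cell markers 3 were at least 2-fold higher in early bulge and 1 at least 2-fold lower. Of 9 basal keratinocyte markers 6 were at least 1.5-fold higher in early bulge, against 17.1% of all measured genes. The hair matrix, the dividing base of the follicle, was represented by 8 markers. All 8 were lower in early bulge and 7 of them at least 2-fold lower. Their median was -2.71 (-1.94 with the mean over probe sets), with a summed signal of 2346 in early bulge and 14278 in ORS. Of 10 dermal fibroblast markers 9 were at least 2-fold lower in early bulge, and their summed signal was 5813 in early bulge and 54305 in ORS. The median of that list was -3.57 (-2.78 with the mean over probe sets), and its brightest genes were the collagens Col3a1 (1378 and 16726) and Col1a2 (1079 and 14484). No fibroblast or hair matrix marker was listed at 0, and Pdgfra and Prrx1 were below the floor in early bulge alone. The part of either cell type in the lower mitotic signals of the early bulge array was not tested. Of 7 immune markers 4 were below the floor on both arrays, as were 3 of 5 endothelial ones. The other two endothelial markers were both lower in early bulge, Tek with 70.0 and 285.9 and Kdr below the floor and at 76.6. Of 8 melanocyte markers 5 were higher and 3 lower in early bulge, with a median of 0.19 that was -0.02 with median centring and -0.01 with a higher floor (60th percentile), and the lowest was Kit (121.4 and 860.0, -2.82). Tek, Kdr and Kit were named after their values were seen.

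The sizes ran from Tpx2, with a log2 ratio of -1.37, to Bub3, with -0.01, and their SD over the 44 genes was 0.34. Few of the 13252 measured genes had a lower log2 ratio than Tpx2 (370 genes, 2.79%), Nek2 (386), Nuf2 (423), Cdc25c (440) and Bub1 (442). At the other end, 6076 genes (45.9%) had a lower one than Bub3. The differences between probe sets of one gene give a technical spread of a ratio, which leaves out the spread between animals. Over 73 pairs of probe sets of these genes, the root mean square difference in log2 ratio was 0.54, which corresponds to an SD of 0.38 for 1 probe set. Over 15292 pairs of all genes that SD was 0.36. These pairs include dim probe sets, while the ratios of the 44 genes come from the brightest ones. The spread among the 44 genes was thus no larger than this technical spread, and the order of neighbouring genes is not resolved. Within the functional groups the SD between genes ran from 0.08 for cytokinesis to 0.46 for the spindle checkpoint.

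**Figure D2:**
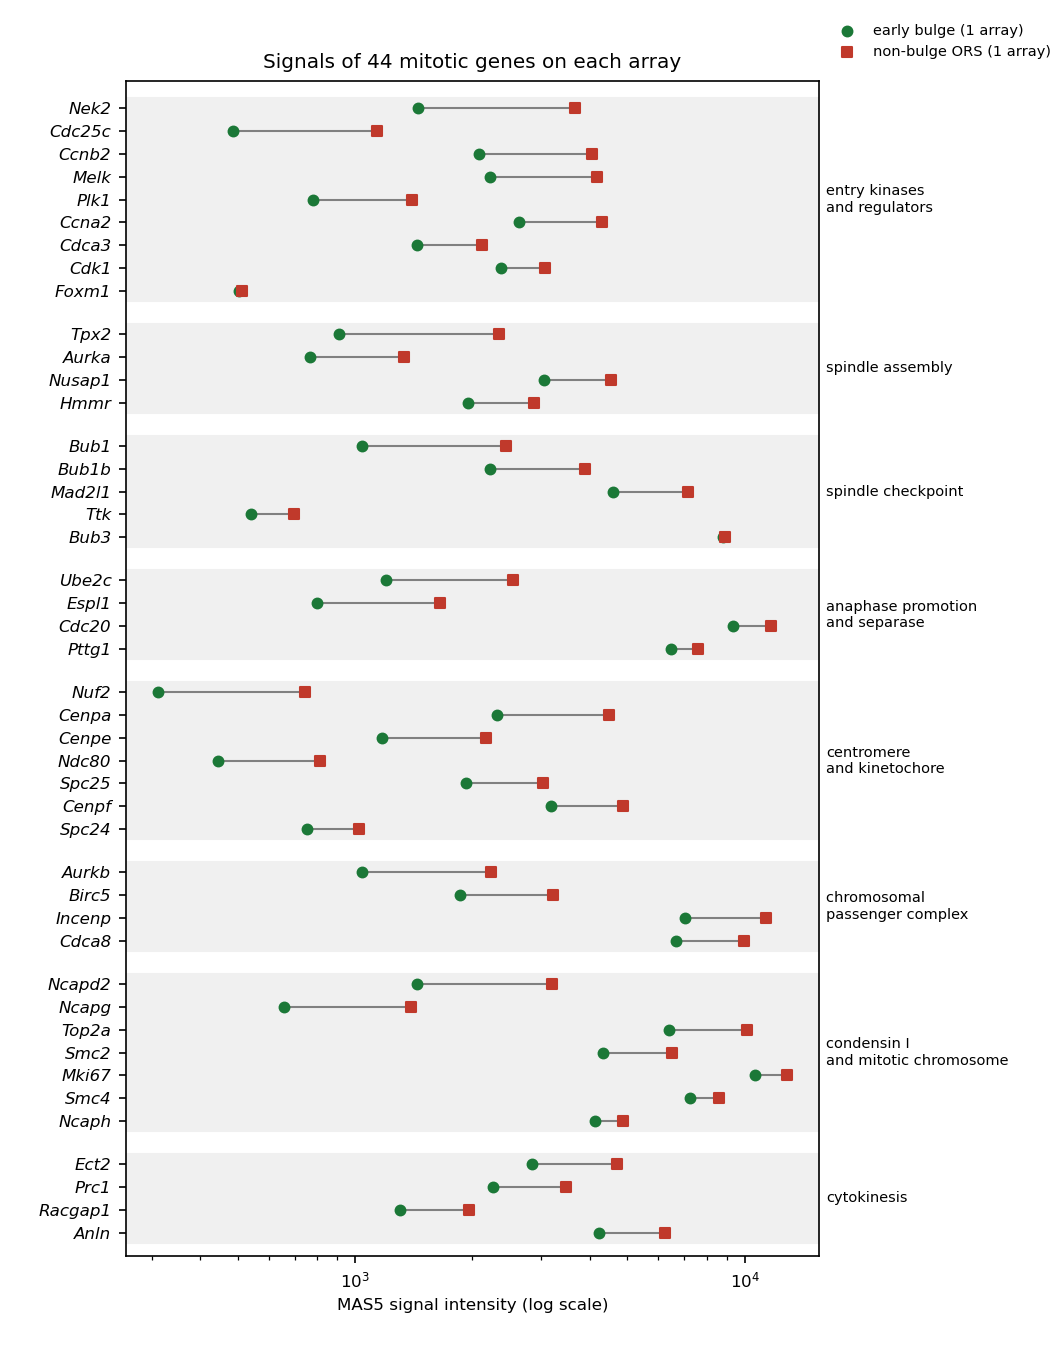
MAS5 signal intensity (log axis) of the 44 mitotic genes on the early bulge array (circles) and the ORS array (squares), 1 array each, by function. The circle lies left of the square for every gene, and the symbols nearly coincide for Foxm1 and Bub3.

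Of 9 genes of mitotic entry and its control, all were lower in early bulge. The difference was at least 1.5-fold for 6 and at least 2-fold for 2, and the median log2 ratio was -0.84. Nek2, a centrosomal kinase that separates the spindle poles, had signals of 1451 in early bulge and 3663 in ORS, a log2 ratio of -1.34, and the mean over its 4 probe sets gave -0.58. Cdc25c, the phosphatase that activates Cdk1, had 486.2 and 1138, a log2 ratio of -1.23. The B-type cyclin Ccnb2 (2078 and 4065) had -0.97. These were the genes of the group furthest apart, each close to or past 2-fold. The kinase Melk (2220 and 4182) and the polo-like kinase Plk1 (781.1 and 1397), which acts from entry to cytokinesis, had log2 ratios of -0.91 and -0.84. The S and G2 cyclin Ccna2 (2636 and 4294) had -0.70.

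Cdk1 itself had 2371 in early bulge and 3076 in ORS, a log2 ratio of -0.38. Cdca3, a cofactor of mitotic entry, had 1440 and 2115 (-0.56), and its other 2 probe sets, both dim, were higher in early bulge (0.05 and 0.48). The ORS signal behind 0.48 was 41.1, below the floor, so that value is a bound. Foxm1, the transcription factor that switches on many mitotic genes, had nearly the same signal on both arrays, 504.0 and 511.7, with -0.02. Its other 2 measured probe sets gave values down to -0.67, so the size for Foxm1 depends on the probe set.

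All 4 spindle assembly genes were lower in early bulge, with a median of -0.69. Tpx2, which nucleates spindle microtubules and activates Aurora A, had 908.5 in early bulge and 2347 in ORS, the lowest log2 ratio of the set (-1.37). Its other 3 probe sets gave log2 ratios up to 0.27, and the mean over probe sets was -0.34, so this size rests on 1 probe set. Aurka, the Aurora A kinase, had 764.2 and 1337, a log2 ratio of -0.81, and its second, dimmer probe set (92.6 and 185.2) was also lower in early bulge. The microtubule-binding proteins Nusap1 (3049 and 4529) and Hmmr (1944 and 2883) both had -0.57. All 5 probe sets of Hmmr were lower in early bulge.

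The 5 spindle checkpoint genes were split in size. The kinase Bub1, which recruits the checkpoint to kinetochores, had 1042 in early bulge and 2437 in ORS, a log2 ratio of -1.23, with -1.11 on its second probe set. Bub1b, which encodes the checkpoint protein BubR1, had 2219 and 3881 (-0.81), and Mad2l1, the Mad2 protein that inhibits Cdc20, had 4580 and 7142 (-0.64). Bub1 was thus 2-fold apart on both of its probe sets, and BubR1 and Mad2 at least 1.5-fold apart. The kinase Ttk, also called Mps1, had 539.0 and 698.3 (-0.37). Bub3, the partner of both Bub kinases, had 8815 and 8902, a log2 ratio of -0.01. The other 3 measured probe sets of Bub3 gave log2 ratios from -0.67 to -0.31, all lower in early bulge.

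Of the 4 genes that open anaphase, 2 were at least 2-fold lower in early bulge and the other two less than 1.5-fold lower. Ube2c, the ubiquitin-conjugating enzyme of the anaphase-promoting complex, had 1203 in early bulge and 2544 in ORS, a log2 ratio of -1.08. Separase, the protease encoded by Espl1 that cleaves cohesin, had 796.3 and 1649 (-1.05). Each of them has 1 probe set and was just past 2-fold. Cdc20, the activator of the complex, had 9323 and 11721, a log2 ratio of -0.33, and its 3 probe sets ran from -0.46 to -0.33. Securin, the separase inhibitor encoded by Pttg1, had 6466 and 7595 (-0.23), and its probe sets ran from -0.57 to 0.05.

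The centromere and kinetochore genes had a median log2 ratio of -0.87, and 6 of the 7 were at least 1.5-fold lower in early bulge. With the mean over probe sets that median was -0.44, with a Cenpa probe set below the floor on both arrays included. Cenpa, the histone H3 variant that marks centromeres, had 2314 in early bulge and 4482 in ORS (-0.95). Cenpe, the kinetochore motor, had 1169 and 2166 (-0.89), with -0.87 on its second probe set. The outer kinetochore protein Cenpf had 3174 and 4862 (-0.62). All 3 were lower in early bulge on every measured probe set. The second measured probe set of Cenpa gave only -0.12, and the dimmer ones of Cenpf gave -0.37 and -0.07.

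The Ndc80 complex, which binds microtubules at the kinetochore, has 4 subunits. Nuf2 had 310.8 in early bulge and 743.1 in ORS (-1.26), and Ndc80 445.7 and 812.8 (-0.87). Spc25 had 1921 and 3034 (-0.66), and Spc24 752.8 and 1022 (-0.44). Log2 ratios of the 4 subunits thus spanned 0.82, and their SD of 0.35 was no larger than that of 1 probe set. A second, dimmer probe set of Spc25 had 212.7 and 156.3 and was higher in early bulge (0.45).

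The chromosomal passenger complex corrects faulty attachments and starts cytokinesis. Its kinase Aurkb, Aurora B, had 1041 in early bulge and 2239 in ORS, a log2 ratio of -1.10, and -1.21 on its other probe set. Survivin, encoded by Birc5, had 1853 and 3214 (-0.79), the scaffold Incenp 7027 and 11370 (-0.69), and borealin, encoded by Cdca8, 6666 and 9974 (-0.58). All 10 measured probe sets of the 4 genes were lower in early bulge. Both probe sets of Aurkb carry a suffix for probes that may match other transcripts.

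Condensin I subunits spanned a range of 0.92 on the log2 scale. The regulatory subunits Ncapd2 (1438 in early bulge and 3203 in ORS) and Ncapg (658.3 and 1388) had log2 ratios of -1.15 and -1.08. Ncaph, the subunit that closes the ring, had 4130 and 4869 (-0.24), with -0.31 on its second probe set. The ATPase subunits shared with condensin II were Smc2 (4341 and 6519, -0.59) and Smc4 (7240 and 8609, -0.25). Other probe sets ran from -1.47 to -0.30 for Smc2 and from -0.43 to -0.16 for Smc4, and gave -0.67 for Ncapd2 and -0.55 for Ncapg. Every condensin probe set was lower in early bulge. Topoisomerase II alpha, Top2a, had 6406 and 10136 (-0.66, with -0.10 on its second measured probe set), and the chromosome surface protein Mki67 had 10648 and 12884 (-0.28).

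The 4 cytokinesis genes had similar log2 ratios on their brightest probe sets, with an SD of 0.08 between genes, but other probe sets differed more. Ect2, the exchange factor that activates RhoA at the division plane, had 2838 in early bulge and 4716 in ORS (-0.73). Prc1, which bundles the midzone, had 2265 and 3485 (-0.62), with -1.09 on its other probe set. Racgap1, a subunit of centralspindlin, had 1305 and 1960 (-0.59), and Anln, the anillin of the contractile ring, had 4238 and 6245 (-0.56). Their other measured probe sets gave -0.71 for Racgap1 and -0.26 for Anln. None was 2-fold apart on the probe set with the highest mean signal.

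Other probe sets of the same genes kept the direction in most cases. Of the 103 probe sets, 97 reached the floor on at least 1 array, and 90 of these were lower in early bulge and 7 higher. Their median log2 ratio was -0.61. Of the 31 genes with more than 1 measured probe set, 26 had all of them lower in early bulge. The other 5 were Nek2, Cdca3, Tpx2, Pttg1 and Spc25, and the highest of their probe sets were at 0.08, 0.48, 0.27, 0.05 and 0.45. The value of Cdca3 is a bound, with the ORS signal below the floor. No probe set was 2-fold higher in early bulge. Only 5 genes were at least 2-fold lower on every measured probe set, namely Bub1, Aurkb, Ube2c, Espl1 and Nuf2, and the last 3 of these have 1 probe set each.

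**Figure D3:**
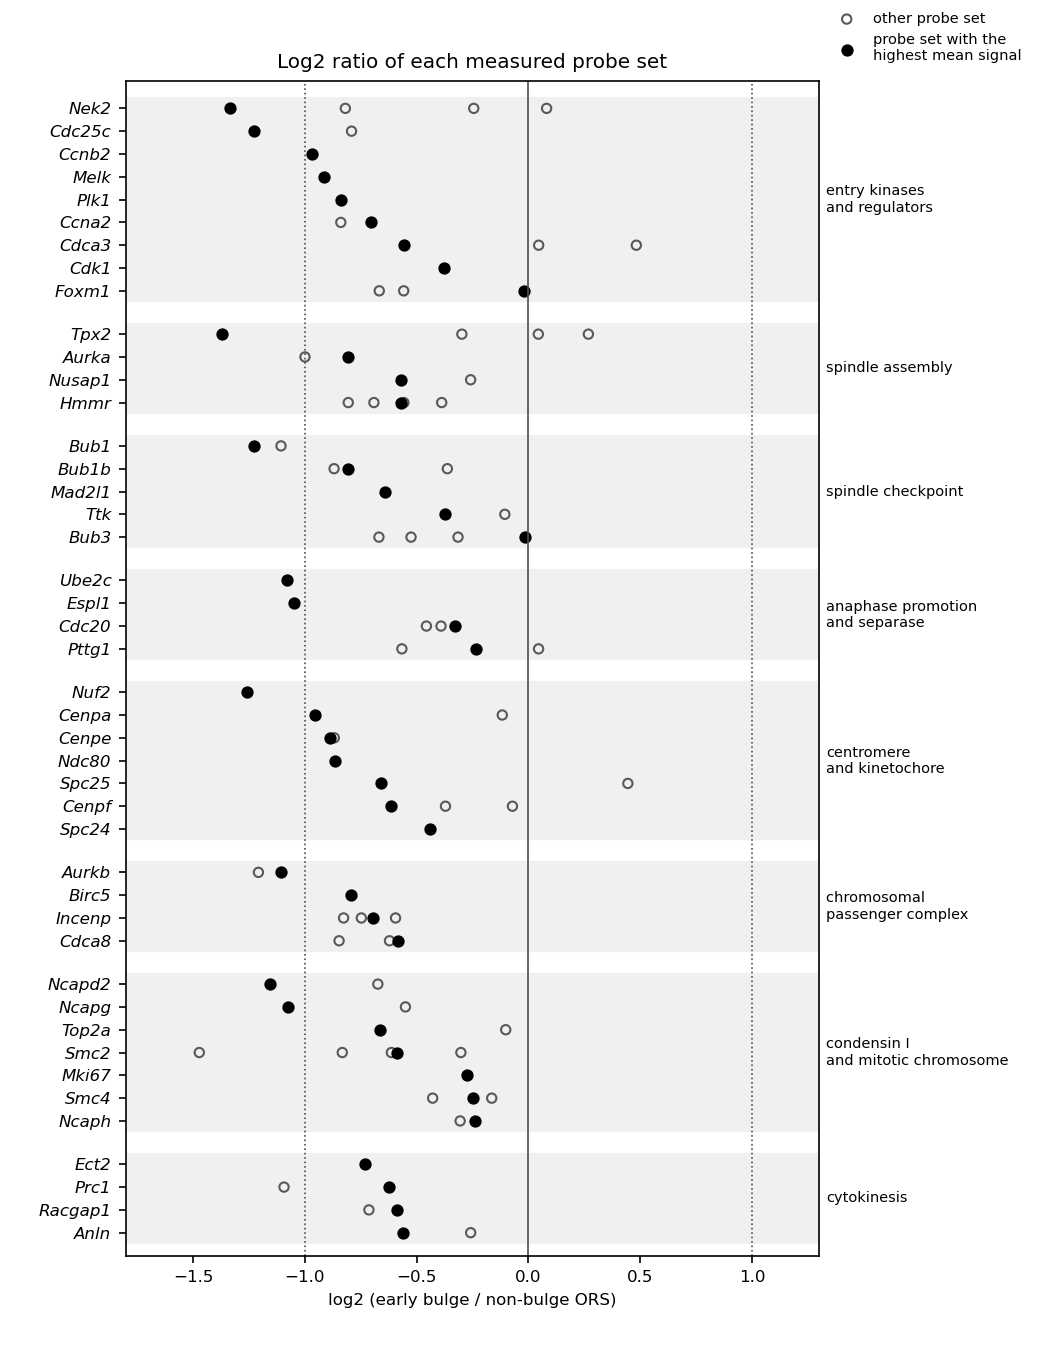
Log2 ratio of early bulge over ORS signal for the 97 measured probe sets of the 44 mitotic genes, by function, with filled symbols for the probe set of highest mean signal and dotted lines at 2-fold. Most symbols lie left of 0, and Nek2, Cdca3, Tpx2, Pttg1 and Spc25 have a probe set to the right of it.

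Further genes of the same machinery, from lists that hold none of the 44, were mostly lower in early bulge, with sizes that differed between lists. Of 106 listed mitotic genes 101 were measured, and 92 of them were lower in early bulge. At least 1.5-fold lower were 35, against 12.8% of all measured genes, and at least 2-fold lower 11, against 4.78%. None was 1.5-fold higher on its brightest probe set, and the median log2 ratio was -0.45. Zw10 (2.07), Zwint (0.74), Mau2 (0.67) and Cit (0.64) had another probe set more than 1.5-fold higher in early bulge, and the remaining genes did not. Of 33 other kinetochore and centromere genes 30 were lower (median -0.57). The largest ratios there were those of Oip5, a subunit of the Mis18 complex that loads Cenpa (126.9 and 354.0, -1.48), and the inner kinetochore genes Cenpi (-1.32) and Cenpp (-1.16). Of 19 other spindle and cytokinesis genes 18 were lower (median -0.62), with Depdc1b (-1.05), Gtse1 (-1.05) and Spag5 (-1.04) at the low end. All 14 other measured genes of mitotic entry and its control were lower (median -0.37). Among them were Bora, which activates Aurora A towards Plk1 (402.7 and 1098, -1.45), Haspin, the histone H3 kinase (-1.18), and Mybl2, the B-Myb factor (-0.90).

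The anaphase-promoting complex and cohesin had medians nearer to that of all genes. For the counts below, 12.8% of all measured genes were at least 1.5-fold lower in early bulge and 4.78% at least 2-fold lower. Of 17 genes of the anaphase-promoting complex and its partners 15 were lower in early bulge but only 1 by at least 1.5-fold, and the median was -0.15. Anapc1 (-0.62) and Cdc23 (-0.57) were lower, and Anapc2 was higher (0.52). Of 15 genes of cohesin, the ring that holds sister chromatids together, and its regulators, 13 were lower and 2 by at least 1.5-fold (median -0.28). These were Esco2 (-1.11), the acetyltransferase that locks cohesin in S phase, and Cdca5 (-0.76), which encodes sororin, and the third largest ratio was that of Pds5a (-0.51). Of the condensin II subunits, Ncapd3 (-0.83) and Ncapg2 (-0.64) were lower and Ncaph2 was slightly higher (0.16), though its 4 probe sets ran down to -0.29. The median of 37 measured DNA replication genes was -0.74, with 34 lower, 24 at least 1.5-fold and 3 at least 2-fold lower (Cdc6, -1.33, Rfc4, -1.22, and Mcm10, -1.15). Whether mitotic and replication genes differ could not be tested with 1 array each. TTTGAA was present in the promoters of 36.9% of 84 other mitotic genes and of 13.8% of 29 replication genes.

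**Figure D4:**
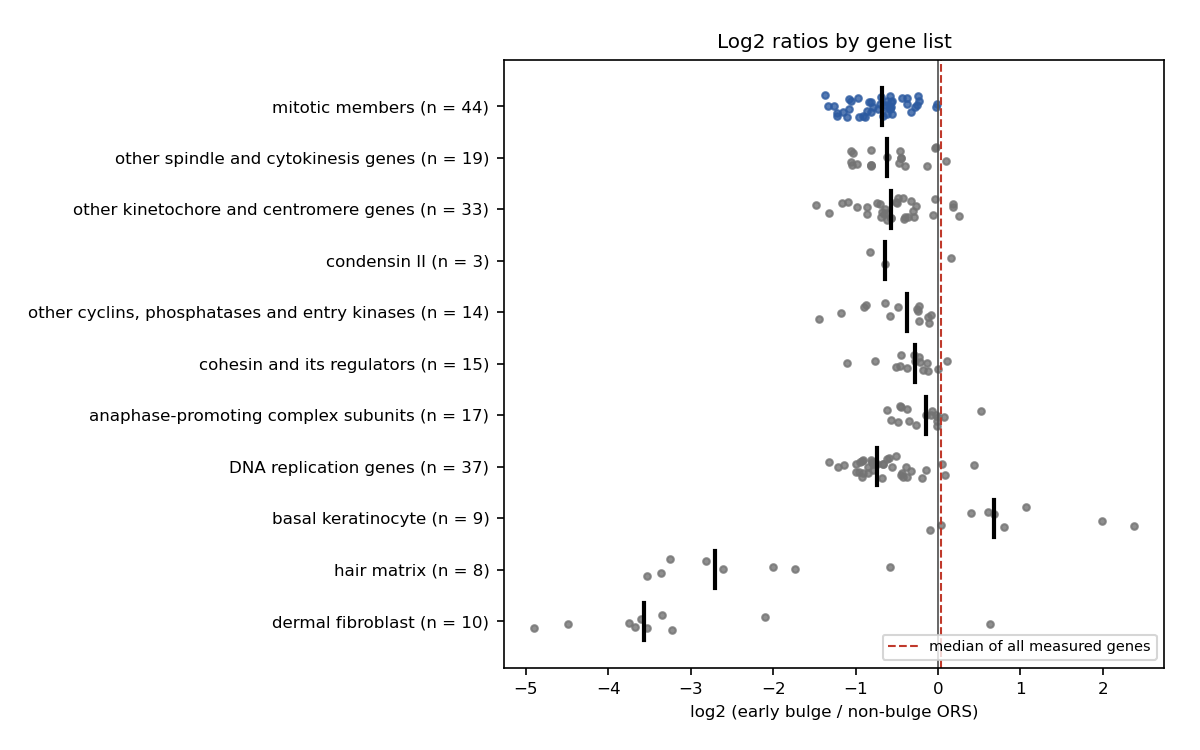
Log2 ratio of early bulge over ORS signal of each measured gene (points) by list, with the median of each list as a black bar and the median of all measured genes (0.04) as a dashed line. The 44 mitotic genes lie left of 0, as do most other mitotic genes (92 of 101) and DNA replication genes (34 of 37), 8 of 9 basal keratinocyte markers lie right of it, and all hair matrix and 9 of 10 dermal fibroblast markers lie to the left.

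Among the 36 mitotic genes with a promoter sequence, those with the motif did not have the lower median. The 26 with TTTGAA had a median log2 ratio of -0.64 (SD 0.28) and the 10 without it -0.84 (SD 0.40), a difference that was not tested. The mitotic genes without a promoter sequence are left out here. They ran from -1.37 for Tpx2 to -0.02 for Foxm1, and Tpx2, Cdc25c and Aurkb among them were at least 2-fold lower in early bulge. The 24 with both motifs and the 7 with neither both had -0.64. Among all measured genes, the 611 with both motifs had a median of -0.04 and the 5322 with neither 0.04.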

How the data were processed

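Total RNA of 2 sorted cell samples was labelled as biotinylated cRNA, per the labels' protocols, and measured on 1 Affymetrix array each. The deposited table holds 1 signal intensity per probe set and array on a linear scale. The submitters' processing notes name MAS5 and Affymetrix Expression Console as the authors' tools. No version and no genome build are given in the sources used here. MAS5 subtracts mismatch signals, so low values are noisy, and the number of arrays limits precision.

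Genes were named from the platform annotation. Probe sets with several symbols (932), with none (9160) and controls (64) were left out. All 44 symbols matched their Entrez ID in RefSeq. Each gene took its values from its brightest probe set (mean log2 over both arrays). A floor was set at the 40th percentile of all signals outside the controls (57.8), lower signals were raised to it, and a gene was measured if 1 array reached it. Genes were counted at 1.5-fold and 2-fold, with no test. Named were all 44 genes, the 3 largest absolute ratios of each pathway list, the gate genes and the 2 brightest fibroblast markers. Leaving the controls out of the floor was decided after the data were seen. The genes and lists were chosen with earlier results of these data known. Alternatives were median centring, quantile normalization, loess (span 0.4), a floor at the 20th or the 60th percentile or none, a pseudocount of 50, the mean over probe sets, and only probe sets lacking the suffixes _s, _x and _a. The mean over probe sets took in those below the floor on both arrays, at a log2 ratio of 0. Python 3.11.15 was used, and the calculation was tested on simulated data.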

Additional observations from a re-analysis of the deposited data

How the results depend on the processing

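The direction held under each of the 9 alternatives for the 44 genes as a whole, with a median log2 ratio between -0.90 and -0.62. All 44 were lower in early bulge under 8 of them. Among the 36 genes that have a probe set lacking the suffixes _s, _x and _a, 33 were lower, and Cdca3 (0.48), Spc25 (0.45) and Pttg1 (0.05) were higher. The value of Cdca3 is a bound, with the ORS signal below the floor. The count of genes at least 1.5-fold apart was between 20 and 37. The count at least 2-fold apart was 10, and it was 19 with median centring, 6 with the mean over probe sets and 5 without suffixed probe sets, which leaves fewer genes. It was 9 with loess and 10 under the other 5 alternatives. Median centring lowered the log2 ratio of each of the 44 genes by the same amount and left their SD at 0.34. Averaging took Nek2, Tpx2, Ncapd2 (-0.91) and Ncapg (-0.81) out of the count, whose other probe sets had smaller differences. Median centring moved the median of all genes by -0.21, and relative to the median of all genes that of the mitotic genes was -0.73 in place of -0.71. With it 7.71% of all genes were at least 2-fold lower, and such genes made up 59.1% of all that were 2-fold apart in place of 39.6%. With the mean over probe sets the ratios of Tpx2 (-0.34), Nek2 (-0.58), Cenpa (-0.36), Top2a (-0.25), Spc25 (-0.11) and Cdca3 (-0.01) moved by more than the spread of 1 probe set (0.36). Without suffixed probe sets Nek2 (-0.82), Cenpa (-0.12) and Top2a (-0.10) did so too. The means of Cenpa and Top2a include a probe set below the floor on both arrays, at a log2 ratio of 0. No replicate could be left out with 1 array per group. No paired analysis was possible because each group has 1 sample.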
